A study of Mus musculus with 6 samples.

Results

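Liver sinusoidal endothelial cells line the hepatic capillaries, and 10 genes that are widely used to recognise them were followed here: Stab1, Stab2, Lyve1, Clec4g, Fcgr2b, Kdr, Ehd3, Tek, Egfl7 and Bmp2. They were taken by gene symbol from a table of 54532 genes. All 10 passed the filter on low counts that left 13134 genes to be tested. The samples were ischemic lobes of C57bl/6 mouse liver. The blood supply of the lobe had been clamped for 1 h at body warmth and reperfused for 12 h before collection. Mice with a hepatocyte-specific deficiency of interferon regulatory factor 8 (IRF8-cKO) gave 3 libraries, and wild-type (WT) mice gave 3. Both groups had the injury and no uninjured liver was measured. The sources used here do not give the driver of the hepatocyte-specific deletion, the ages or the sexes. The labels do not say that each library is a separate animal, so p-values measure only the spread between these samples.

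Sinusoidal endothelium differs from that of other vessels in that it is fenestrated, lies on little basement membrane and clears macromolecules from blood through scavenger receptors. It carries receptors for vascular endothelial growth factor and angiopoietins, which support vessel growth and stability. It also secretes bone morphogenetic proteins that instruct hepatocytes to make the iron hormone hepcidin. The deletion is labelled as being in hepatocytes and not in these cells, and whole tissue was sequenced. In bulk tissue, fewer cells of a type and less RNA per cell cannot be told apart.

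The 6 libraries held 14758237 to 16805830 counted reads. Levels are in CPM, counts scaled to a common library size with edgeR's TMM factors. Where a gene has 3 values per group, those of WT are in the order WT-14, then WT-44, then WT-77, and those of IRF8-cKO in the order IRF8-cKO-71, then IRF8-cKO-88, then IRF8-cKO-106. Irf8, the targeted gene, ranged over 9.32 to 10.3 CPM in the WT group and 4.17 to 6.72 CPM in the IRF8-cKO group (log2 fold change -0.81, edgeR adjusted p = 0.174, SE 0.33), and counts per gene cannot tell which cells lost it. IRF8-cKO-88 differed from both other libraries of its group in several genes below. Values without IRF8-cKO-88 are given for the members, and for most other genes named, whose call it changed. Across all 13134 genes edgeR's quasi-likelihood test called 182 at an adjusted p under 0.05, which is 1.39% of genes. Of all genes, 0.449% were called higher and 0.937% lower in IRF8-cKO, or 59 and 123 genes, against 39 and 43 when libraries were scaled by their totals alone. WT and IRF8-cKO did not overlap in CPM for 28.9% of genes, of which IRF8-cKO was higher for 14.4% and lower for 14.5% of all genes.

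Promoter sequences are shown for Tek and Egfl7, the members whose groups did not overlap, for Kdr, which divided the IRF8-cKO libraries, and for Stab2, whose level was close in both groups. Each is the 250 bases before the annotated start in RefSeq (GRCm38.p6), read 5′ to 3′ in the direction of the gene. Their positions are chr4:94739039-94739288, plus strand for Tek, chr5:75978456-75978705, minus strand for Kdr, chr2:26583615-26583864, plus strand for the second of 3 annotated Egfl7 starts, and chr10:87007943-87008192, minus strand for Stab2. Capitals mark matches on either strand to AGGAAG, a form of the ETS factor site, or to GGAANNGAA, a short form of the composite of ETS and IRF sites, and matches can overlap.
Tek: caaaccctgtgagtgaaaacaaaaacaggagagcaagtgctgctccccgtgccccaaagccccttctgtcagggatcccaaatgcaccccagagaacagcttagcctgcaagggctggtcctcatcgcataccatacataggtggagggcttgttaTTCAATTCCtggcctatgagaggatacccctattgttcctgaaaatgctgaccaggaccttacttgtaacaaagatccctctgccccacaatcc
Kdr: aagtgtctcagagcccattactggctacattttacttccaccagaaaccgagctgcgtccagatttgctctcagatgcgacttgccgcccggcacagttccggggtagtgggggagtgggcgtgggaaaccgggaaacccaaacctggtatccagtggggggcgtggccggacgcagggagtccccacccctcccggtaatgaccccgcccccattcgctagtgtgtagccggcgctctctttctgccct
Egfl7: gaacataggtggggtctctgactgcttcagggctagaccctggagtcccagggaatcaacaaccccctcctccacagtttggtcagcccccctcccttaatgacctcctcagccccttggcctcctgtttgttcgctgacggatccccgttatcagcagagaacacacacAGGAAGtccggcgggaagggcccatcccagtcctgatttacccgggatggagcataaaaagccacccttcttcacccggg
Stab2: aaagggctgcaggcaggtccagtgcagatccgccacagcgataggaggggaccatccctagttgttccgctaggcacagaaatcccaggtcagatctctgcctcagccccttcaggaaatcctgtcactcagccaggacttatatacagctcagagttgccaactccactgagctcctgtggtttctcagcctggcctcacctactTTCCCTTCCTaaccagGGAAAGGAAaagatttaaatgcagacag

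The table of promoters held 10 starts for 8 of the members, and Bmp2 and Lyve1 were not matched. AGGAAG occurred at 5 of the 10 starts, in Stab1, Stab2, Clec4g and Egfl7, against 29.5% of 32851 mouse promoter windows of the same 250 bases. GGAANNGAA occurred at 5 of the 10 starts, with 2 matches in Stab2 and 1 each in Stab1, Clec4g, Fcgr2b and Tek, against 6.99% of windows. The GATA site AGATAA (9.99% of windows) and the IRF site GAAANNGAA (7.13% of windows) were not found at any of the 10 starts. These are matches of letters and were not tested as binding sites.

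Over all 10 identity genes, 0 passed the edgeR test over all genes, higher or lower. Unadjusted p was under 0.05 for 4 of them, Tek, Egfl7, Lyve1 and Kdr, against 24.1% of all genes. Log2 fold changes were positive for 7 and negative for 3, with a median of 0.21 beside 0.03 for all genes tested. Tek, higher in IRF8-cKO, and Egfl7, lower in IRF8-cKO, were the 2 members whose groups were apart in CPM, and the other 8 overlapped, beside 28.9% of all genes without overlap.

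Other scalings and tools gave the members a second reading. With DESeq2, which called 10.8% of all genes, 2 members passed, Tek higher and Egfl7 lower. The same pair passed in limma-voom with library weights (5.06% of all genes called), and 0 members passed in limma-voom without weights (0.845% called). Median-of-ratios scaling (1.26% of all genes called), upper-quartile scaling (1.54%), library totals (0.624%), a filter of 1 CPM (1.52%), no robust shrinkage (1.16%) and removal of the 10 most read genes (1.38%) each gave 0 members. Without any filter on low counts 4 members passed, and 7.15% of all genes. With WT-14 left out 1.02% of all genes were called, 0.00733% without WT-44, 0.00% without WT-77, 1.05% without IRF8-cKO-71 and 0.148% without IRF8-cKO-106, and 0 members in each. Without IRF8-cKO-88 3 members were called, Tek, Kdr and Lyve1, beside 8.83% of all genes.

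**Figure D1:**
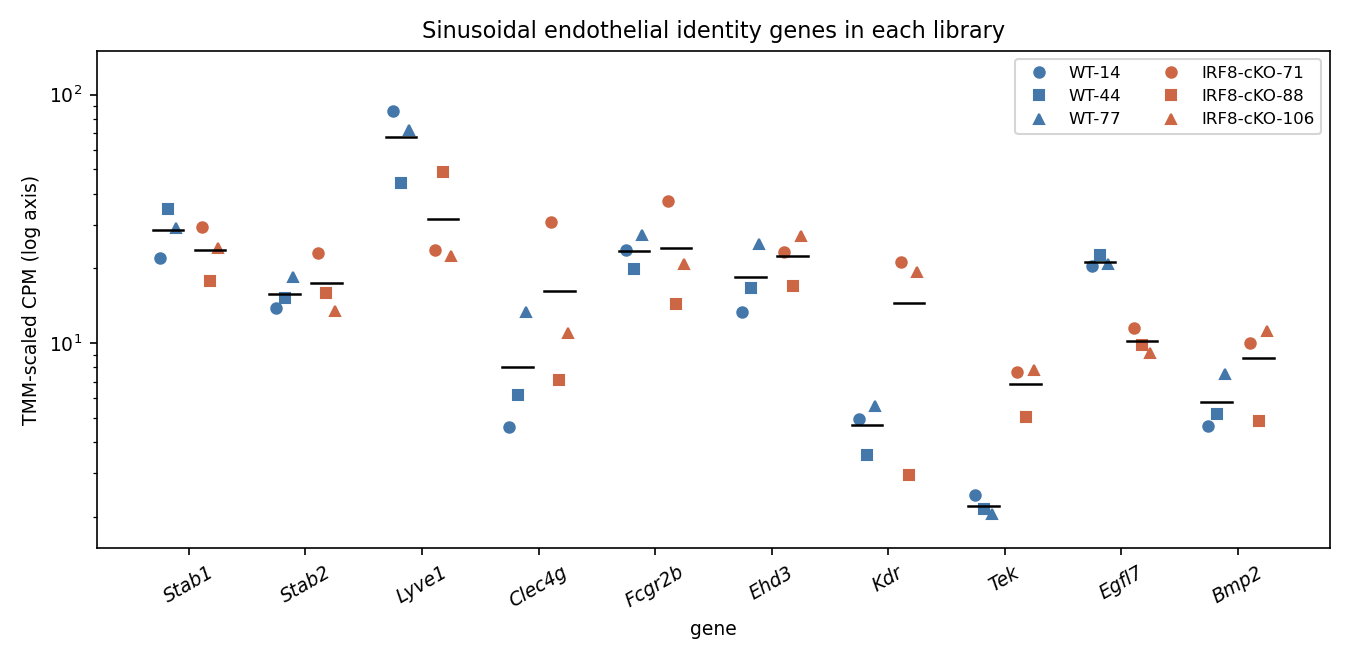
TMM-scaled CPM of the 10 identity genes (log axis) in 3 WT libraries (blue) and 3 IRF8-cKO libraries (orange), 1 point per library, with a bar at each group mean. Tek lay at 2.06 to 2.45 CPM for WT and 5.06 to 7.83 CPM for IRF8-cKO, and Egfl7 at 20.4 to 22.7 CPM for WT and 9.13 to 11.5 CPM for IRF8-cKO, while the other genes overlapped.

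Levels per kilobase of the deposited gene length (CPM per kilobase) placed Lyve1 first, at 16.9 ± 8.73 (SD, n = 6), and Tek last, at 0.962 ± 0.577. Between them, in falling order of the mean, came Clec4g, Egfl7, Fcgr2b, Ehd3, Stab1, Bmp2, Stab2 and Kdr, from 4.94 ± 3.92 for Clec4g to 1.07 ± 0.928 for Kdr. No neighbours in this order kept their places in all 6 libraries. Lyve1 was above Clec4g in 5, with the exception of IRF8-cKO-71, where Clec4g reached 12.5 and Lyve1 8.15 CPM per kilobase. Stab1 was above Bmp2 in 5 and Stab2 above Kdr in 5, and Clec4g was above Egfl7 in 3. Tek and Kdr, both receptor tyrosine kinases, were thus the members with the lowest mean levels per length.

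Stabilin-1 and stabilin-2 are large scavenger receptors of sinusoidal endothelium, which take up oxidised lipoproteins, heparin and, for stabilin-2, hyaluronan. Stab1 (ENSMUSG00000042286, chromosome 14, 31139013 to 31168641, minus strand, mm10) was measured at 21.9, 34.8 and 28.97 CPM in the WT libraries and 29.4, 17.8 and 24.05 CPM in the IRF8-cKO libraries. The groups overlapped broadly, with the highest value in WT-44 and the lowest in IRF8-cKO-88. Its log2 fold change was -0.26 (95% interval -0.91 to 0.38, SE 0.29), with an edgeR adjusted p of 0.605. Stab2 (ENSMUSG00000035459, chromosome 10, 86841198 to 87008025, minus strand) was measured at 13.9, 15.2 and 18.4 CPM for WT and 23.1, 15.9 and 13.4 CPM for IRF8-cKO. IRF8-cKO libraries held both its highest and its lowest value. The Stab2 log2 fold change was 0.14 (interval -0.52 to 0.80, SE 0.30, adjusted p = 0.802), and -0.10 without IRF8-cKO-71. The intervals of both stabilins leave out a 2-fold difference in either direction.

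Lyve1 (ENSMUSG00000030787, chromosome 7, 110850607 to 110863239, minus strand) encodes a hyaluronan receptor found on sinusoidal and lymphatic endothelium and on some macrophages. WT libraries held 85.7, 43.9 and 72.1 CPM and IRF8-cKO libraries 23.8, 48.7 and 22.4 CPM. The groups overlapped through a single pair, since IRF8-cKO-88 lay above WT-44. WT averaged 67.2 ± 21.3 CPM and IRF8-cKO 31.7 ± 14.8 CPM (SD, n = 3 each). The difference of -1.09 on the log2 scale (SE 0.38, interval -1.93 to -0.25) did not pass in edgeR (adjusted p = 0.131). With 1 library left out the difference ran from -1.54 to -0.87. Among these fits it passed only without IRF8-cKO-88, at -1.54 (adjusted p = 0.0273).

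Clec4g (ENSMUSG00000074491, chromosome 8, 3707064 to 3720651, minus strand) encodes LSECtin, a C-type lectin of liver and lymph node sinuses. WT libraries held 4.597, 6.22 and 13.4 CPM and IRF8-cKO libraries 30.7, 7.09 and 10.98 CPM. IRF8-cKO-71 was more than 2-fold above every other library, and the remaining IRF8-cKO libraries lay within the WT range. The log2 fold change of 1.01 (SE 0.58, edgeR adjusted p = 0.311) dropped to 0.18 without IRF8-cKO-71 and to 0.35 in limma-voom with library weights.

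Fcgr2b (ENSMUSG00000026656, chromosome 1, 170958617 to 170976547, minus strand) encodes the inhibitory Fc gamma receptor with which sinusoidal endothelium clears small immune complexes. Its levels were 23.7, 19.9 and 27.2 CPM for WT and 37.3, 14.4 and 20.8 CPM for IRF8-cKO. IRF8-cKO libraries again held both the highest and the lowest value. The log2 fold change was 0.03 (interval -0.75 to 0.82, SE 0.35, edgeR adjusted p = 0.962), and -0.41 without IRF8-cKO-71. Ehd3 (ENSMUSG00000024065, chromosome 17, 73804134 to 73832094, plus strand), which encodes an ATPase of endocytic recycling, was measured at 13.4, 16.7 and 25.2 CPM for WT and 23.3, 16.96 and 27.1 CPM for IRF8-cKO. Its groups overlapped, and its log2 fold change was 0.29 (interval -0.42 to 0.99, SE 0.32, adjusted p = 0.605).

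Kdr (ENSMUSG00000062960, chromosome 5, 75932827 to 75978458, minus strand) encodes the main signalling receptor for vascular endothelial growth factor A. Its counts were 81, 41 and 84 reads for WT and 345, 48 and 419 reads for IRF8-cKO. In CPM this was 4.96, 3.54 and 5.58 against 21.3, 2.96 and 19.4. IRF8-cKO-71 and IRF8-cKO-106 lay above all WT libraries, and IRF8-cKO-88 was the lowest of all 6. The log2 fold change was 1.63 (SE 0.62, interval 0.24 to 3.01) and did not pass (edgeR adjusted p = 0.156). Without IRF8-cKO-88 it was 2.11 and passed (adjusted p = 0.00799). In limma-voom it was lower, at 1.23 (adjusted p = 0.337), and with library weights 0.98 (adjusted p = 0.331).

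Tek (ENSMUSG00000006386, chromosome 4, 94739289 to 94874976, plus strand) encodes TIE2, the angiopoietin receptor. Its counts were 40, 25 and 31 reads for WT and 124, 82 and 169 reads for IRF8-cKO, or 2.45, 2.16 and 2.06 CPM against 7.65, 5.06 and 7.83 CPM. Each IRF8-cKO library was more than 2-fold above each WT library. The means were 2.22 ± 0.204 and 6.84 ± 1.55 CPM (SD, n = 3 each), and the log2 fold change was 1.62 (SE 0.38, interval 0.78 to 2.45). Its edgeR adjusted p was 0.0606. Permuting the libraries exactly, two-sided and on log2 CPM, gave p = 0.1, which no comparison of 3 with 3 can go below. With 1 library left out the log2 fold change ran from 1.52 to 1.80, and the gene passed without IRF8-cKO-88 (adjusted p = 0.0233).

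Egfl7 (ENSMUSG00000026921, chromosome 2, 26580014 to 26593120, plus strand) encodes a secreted protein of endothelial cells that binds the vessel matrix and modulates Notch signalling. WT libraries held 20.4, 22.7 and 20.8 CPM and IRF8-cKO libraries 11.5, 9.87 and 9.13 CPM. The groups were tight and apart, at 21.3 ± 1.23 and 10.2 ± 1.23 CPM (SD, n = 3 each). The log2 fold change of -1.07 (SE 0.26, interval -1.65 to -0.48) had an edgeR adjusted p of 0.0678 and an exact two-sided permutation p of 0.1. It ran from -1.16 to -0.98 with 1 library left out and did not pass in any of these fits. The neighbouring gene model of Agpat2, on the opposite strand, shares 64 bases of its span with Egfl7. On the same strand the model of Gm20532 shares 6482 bases, with 0 reads in all 6 libraries. Agpat2, an enzyme gene of phospholipid synthesis, ranged over 53.02 to 71.5 CPM for WT and 75.4 to 186 CPM for IRF8-cKO (log2 fold change 1.15, adjusted p = 0.0999), and passed without IRF8-cKO-88 (adjusted p = 0.0224). Whether reads were shared between any of these models was not tested. Rows of their own for Mir126a and Mir126b, microRNA genes within Egfl7, held 0 reads in all 6 libraries. Of the other members, Stab1 shares 112 bases with Nt5dc2, which had 388 reads over the 6 libraries, and the antisense models across Stab2, Clec4g and Fcgr2b had no more than 5 reads each.

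Bmp2 (ENSMUSG00000027358, chromosome 2, 133552159 to 133562885, plus strand) encodes a bone morphogenetic protein that sinusoidal endothelium sends to hepatocytes. WT libraries held 4.66, 5.18 and 7.51 CPM and IRF8-cKO libraries 10.1, 4.87 and 11.2 CPM. IRF8-cKO-88 lay within the WT range and the other IRF8-cKO libraries above it. The log2 fold change was 0.59 (interval -0.31 to 1.49, SE 0.40, edgeR adjusted p = 0.385), and leaving out IRF8-cKO-88 gave 0.88 (adjusted p = 0.149).

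**Figure D2:**
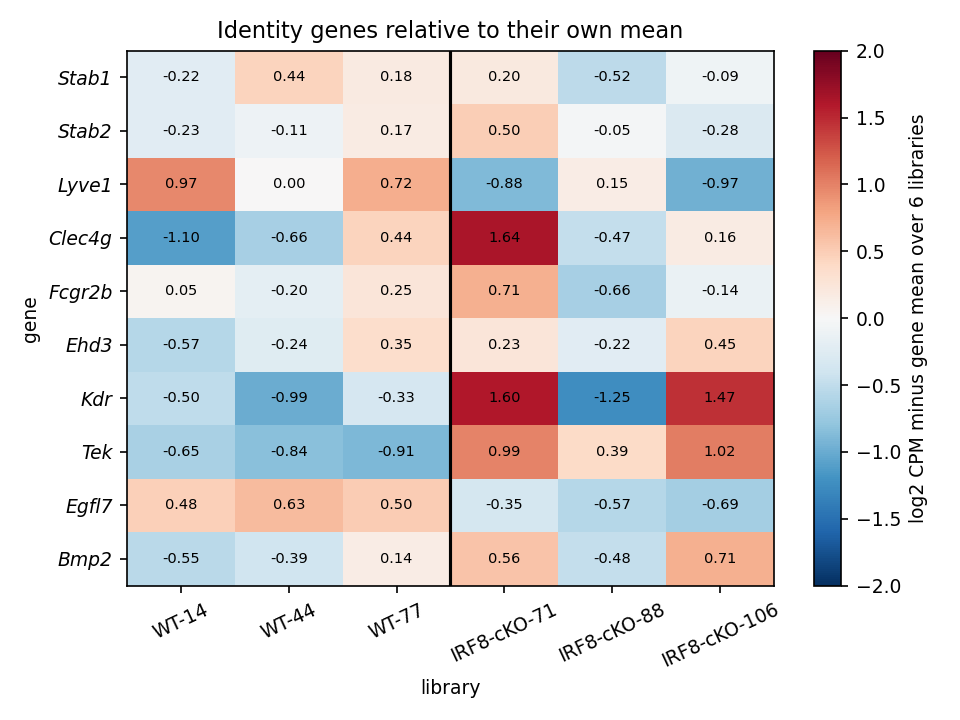
Log2 CPM of each identity gene minus its mean over the 6 libraries, by library, with WT left and IRF8-cKO right of the black line. Kdr reached 1.60 in IRF8-cKO-71 and 1.47 in IRF8-cKO-106 and was at -1.25 in IRF8-cKO-88, while Tek and Egfl7 each kept 1 sign within a group.

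The members did not share a single pattern over the libraries. The mean of their centred log2 CPM spanned 0.88, from -0.36 in IRF8-cKO-88 to 0.51 in IRF8-cKO-71. IRF8-cKO-88 was the lowest library for Stab1, Fcgr2b and Kdr. IRF8-cKO-71 was the highest for Stab2, Clec4g, Fcgr2b and Kdr. IRF8-cKO-106 was the highest for Ehd3, Tek and Bmp2 and the lowest for Stab2, Lyve1 and Egfl7. Within the hyaluronan receptors, Lyve1 and Stab2 had their highest values in different groups, Lyve1 in WT-14 and Stab2 in IRF8-cKO-71.

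**Figure D3:**
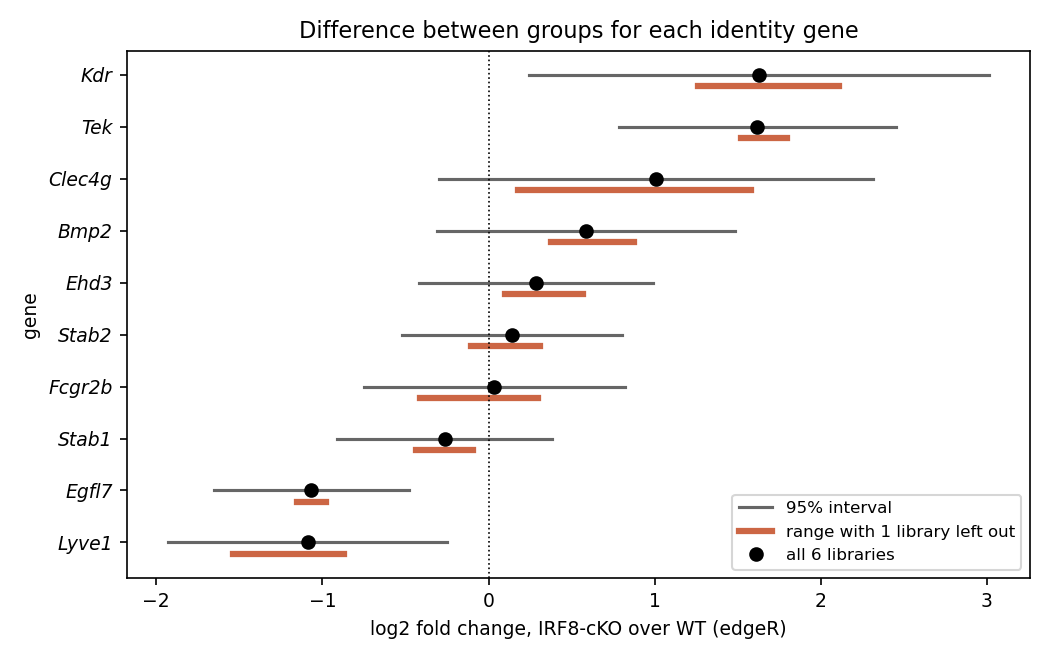
Log2 fold change of IRF8-cKO over WT for each identity gene (points), with its 95% interval (grey) and the range when 1 library was left out (orange). Tek (1.62) and Kdr (1.63) lay highest and Lyve1 (-1.09) and Egfl7 (-1.07) lowest. The leave-one-out range of Clec4g (0.18 to 1.58) was the widest.

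The 15 other genes known from sinusoidal endothelium gave 0 calls in either direction in edgeR. Of these 4 had an unadjusted p under 0.05, beside 24.1% of all genes, and 1 was called without IRF8-cKO-88, beside 8.83%. The median log2 fold change of the 15 genes was 0.41 and 12 were positive, beside 51.5% of all genes. The groups did not overlap for 6 of them, 5 higher and 1 lower in IRF8-cKO, beside 14.4% of all genes higher and 14.5% lower. Mrc1, Cd36, Maf and Clec1b of this list are also made by macrophages, all 12 Kupffer cell markers had positive log2 fold changes (median 0.97), and the part of macrophages in these values was not tested. Cd36, a fatty acid and scavenger receptor also made by other liver cells, ranged over 11.1 to 24.1 CPM for WT and 30.6 to 102 CPM for IRF8-cKO (log2 fold change 1.65, edgeR adjusted p = 0.101, SE 0.50). Without IRF8-cKO-71 the Cd36 log2 fold change was 0.86, and without IRF8-cKO-88 it was 1.92 and passed (adjusted p = 0.0450). Gata4, a transcription factor that maintains sinusoidal identity, ranged over 7.08 to 12.99 CPM for WT and 14.1 to 20.8 CPM for IRF8-cKO (log2 fold change 0.90, adjusted p = 0.139, SE 0.33).

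General endothelial genes, listed as genes of endothelium of any vessel, had a median on the other side of 0. The part of other cells in their values was not tested. Of 25 tested, 0 passed in edgeR, with 9 at an unadjusted p under 0.05, beside 24.1% of all genes. Without IRF8-cKO-88, 6 passed, 2 higher and 4 lower in IRF8-cKO, in a fit that called 8.83% of all genes. Among the 25, 18 had negative and 7 positive log2 fold changes, from -1.92 to 2.46, and the median was -0.33. The groups did not overlap for 8, all 8 lower in IRF8-cKO, beside 14.5% of all genes lower without overlap. Esam, a junctional adhesion molecule, ranged over 30.7 to 34.4 CPM for WT and 11.7 to 17.2 CPM for IRF8-cKO (log2 fold change -1.20, edgeR adjusted p = 0.0531, SE 0.26). Robo4, an endothelial guidance receptor, ranged over 12.6 to 23.3 CPM for WT and 5.56 to 8.64 CPM for IRF8-cKO (log2 fold change -1.54, adjusted p = 0.0577, SE 0.35). Both passed when IRF8-cKO-88 was left out, Esam at -1.36 (adjusted p = 0.0224) and Robo4 at -1.78 (adjusted p = 0.0209). Genes of continuous or capillarised endothelium gave 0 calls among 9 tested of 11, with a median of -0.20 and 9 of 9 negative, but library totals turned that median to 0.056. None of these reached an unadjusted p under 0.05. In that list Col4a2, a basement membrane collagen gene, had a log2 fold change of -0.61 (adjusted p = 0.292) and Cd34 one of -0.73 (adjusted p = 0.379).

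Each member was also set against the mean log2 CPM of the 25 general endothelial genes in the same library. On this scale the mean of the 10 members was 0.82, 1.12 and 1.05 for WT and 1.79, 1.13 and 1.505 for IRF8-cKO. WT-44 and IRF8-cKO-88 were nearly level, and the other IRF8-cKO libraries lay above all WT libraries. Tek was higher in IRF8-cKO without overlap, at 0.09 to 0.55 against -1.77 to -1.24. Ehd3 was higher without overlap, at 1.81 to 2.33 against 1.02 to 1.77, and Egfl7 lower, at 0.77 to 1.03 against 1.49 to 2.08. The other 7 overlapped. With Pecam1 and Cdh5 as the reference, 1 member, Tek, did not overlap. The groups then overlapped in the mean of the 10 members, at -0.90 in IRF8-cKO-88 and -0.64 in WT-44. Cdh5 itself had a log2 fold change of -1.21 and did not pass (edgeR adjusted p = 0.0700, SE 0.30). Without IRF8-cKO-88 it was -1.40 and passed (adjusted p = 0.0317). A ratio to reference genes shows unequal change of members and reference and does not say which of them moved.

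**Figure D4:**
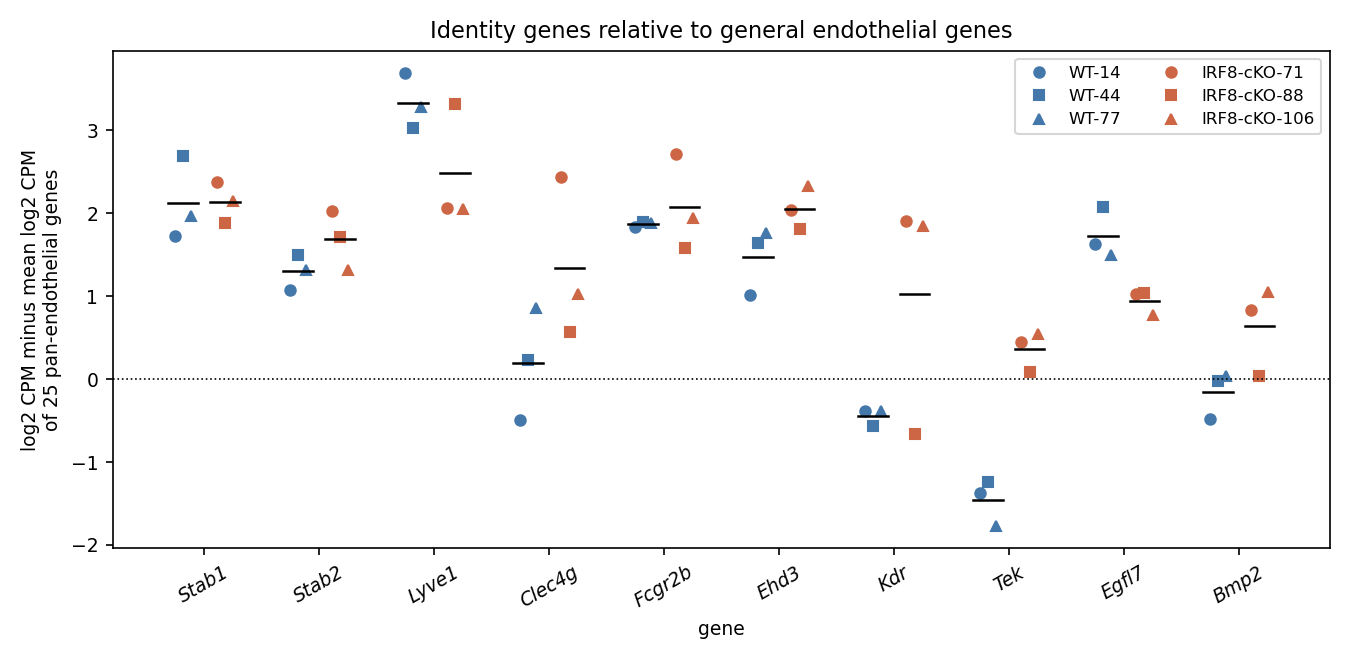
Log2 CPM of each identity gene minus the mean log2 CPM of 25 general endothelial genes in the same library, with 1 point per library and a bar at each group mean. Tek, Ehd3 and Egfl7 were apart between WT (blue) and IRF8-cKO (orange), and Kdr was at 1.91 in IRF8-cKO-71, 1.85 in IRF8-cKO-106 and -0.66 in IRF8-cKO-88.

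Around Kdr, 8 of 10 ligands and receptors of the vascular endothelial growth factor family, Kdr included, were tested and 0 passed in edgeR. Their median was 0.02, with 2 at an unadjusted p under 0.05, Kdr among them, beside 24.1% of all genes. Without IRF8-cKO-88, 3 genes of the family passed, Kdr among them, beside 8.83% of all genes. The ligand Vegfa ranged over 57.1 to 108 CPM for WT and 35.5 to 65.5 CPM for IRF8-cKO (log2 fold change -0.62, edgeR adjusted p = 0.286). Vegfb, which signals through Flt1, lay lower in IRF8-cKO without overlap, at 9.56 to 11.9 against 4.26 to 7.18 CPM (log2 fold change -0.83, adjusted p = 0.173). Flt1, a decoy and signalling receptor, ranged from 8.51 to 9.87 CPM in IRF8-cKO and 6.91 to 11.7 CPM in WT. Flt4, the receptor for Vegfc, ranged from 9.50 to 15.7 CPM in IRF8-cKO and 10.2 to 11.7 CPM in WT. Nrp1, a co-receptor also made by other cells, split the IRF8-cKO libraries the other way from Kdr. It was at 664 CPM in IRF8-cKO-88, 135 CPM in IRF8-cKO-71 and 129 CPM in IRF8-cKO-106. Summed over the 10 genes of the family, Nrp1 included, levels were 382, 505 and 584 CPM for WT. For IRF8-cKO they were 275, 759 and 242 CPM.

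Around Tek, 7 of 9 genes of the angiopoietin axis, Tek included, were tested and 0 passed in edgeR, with a median of 0.33. Of these 3 had an unadjusted p under 0.05, Tek among them, beside 24.1% of all genes. Without IRF8-cKO-88, 3 genes of the axis passed, Tek among them, beside 8.83% of all genes. Tie1, the partner receptor of Tek, lay on the other side from Tek, at 12.8 to 16.3 CPM for WT and 9.003 to 10.3 CPM for IRF8-cKO, without overlap (log2 fold change -0.58, edgeR adjusted p = 0.229, SE 0.28). Angpt2, the ligand released by activated endothelium that can oppose Tek signalling, was measured at 8.95, 4.32 and 2.33 CPM for WT and 0.432, 1.11 and 1.297 CPM for IRF8-cKO. The groups did not overlap, and WT-14 was the highest. The Angpt2 log2 fold change was -2.44 (adjusted p = 0.0705, SE 0.61), and -1.79 without WT-14. It passed without IRF8-cKO-88, at -2.55 (adjusted p = 0.0476). Ptprb, the phosphatase that restrains Tek, ranged over 13.2 to 23.5 CPM for WT and 19.2 to 34.4 CPM for IRF8-cKO (log2 fold change 0.74, adjusted p = 0.208). Angpt1 and Angpt4 were under the filter, at no more than 0.617 CPM in any library.

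Around Bmp2, 24 genes from ligands to hepcidin, Bmp2 included, were tested and 0 passed in edgeR. Their median was 0.02, with 12 positive and 12 negative log2 fold changes. Of these 7 had an unadjusted p under 0.05, beside 24.1% of all genes. Without IRF8-cKO-88, 3 genes of the axis passed, beside 8.83% of all genes. Bmp6, the other endothelial ligand, ranged over 2.16 to 5.85 CPM for WT and 1.295 to 2.64 CPM for IRF8-cKO (log2 fold change -0.92, edgeR adjusted p = 0.298). Hfe2, the symbol in the table for the co-receptor hemojuvelin (Hjv), was measured at 5.27, 5.27 and 7.44 CPM for WT and 104, 16.9 and 31.3 CPM for IRF8-cKO. All IRF8-cKO libraries were above all WT libraries, with IRF8-cKO-71 far above the rest. The Hfe2 log2 fold change was 3.08 (adjusted p = 0.0553, SE 0.63), and 2.02 without IRF8-cKO-71 (adjusted p = 0.0378). Leaving out IRF8-cKO-88 gave 3.50 (adjusted p = 0.00595). The receptors Bmpr1a and Bmpr2 overlapped between groups, with log2 fold changes of 0.36 and 0.27.

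Further down the same axis, among signal transducers and targets, log2 fold changes went both ways. They were positive for Smad4 (0.39), Smad5 (0.35), Smad6 (0.55), Id2 (0.07) and Atoh8 (0.83), and negative for Smad1, Smad7 (-0.0245), Id1, Id3 (-1.08), Hamp and Hamp2 (-1.48). Id1, an early target of this signalling, was measured at 20.7, 60.95 and 28.4 CPM for WT and 6.47, 11.8 and 11.4 CPM for IRF8-cKO, without overlap (log2 fold change -1.89, edgeR adjusted p = 0.0583, SE 0.43). Without IRF8-cKO-88 Id1 passed, at -2.02 (adjusted p = 0.0356). Smad1, a signal transducer, Hamp, which encodes hepcidin, and the other transducers and targets outside Id1 are named after their values were seen. Smad1 ranged over 62.7 to 82.6 CPM for WT and 22.2 to 44.8 CPM for IRF8-cKO (log2 fold change -1.19, adjusted p = 0.0850). Smad1 passed without IRF8-cKO-88, at -1.57 (adjusted p = 0.0162). Hamp was measured at 256, 1910.0 and 1259 CPM for WT and 291, 280.3 and 153 CPM for IRF8-cKO. WT-14 lay inside the IRF8-cKO range and the other WT libraries far above it. The Hamp log2 fold change was -2.24 (adjusted p = 0.0910, SE 0.64). Without WT-14 it was -2.71 and passed (adjusted p = 0.0378), and without WT-44 it was -1.66 and did not (adjusted p = 0.297).

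**Figure D5:**
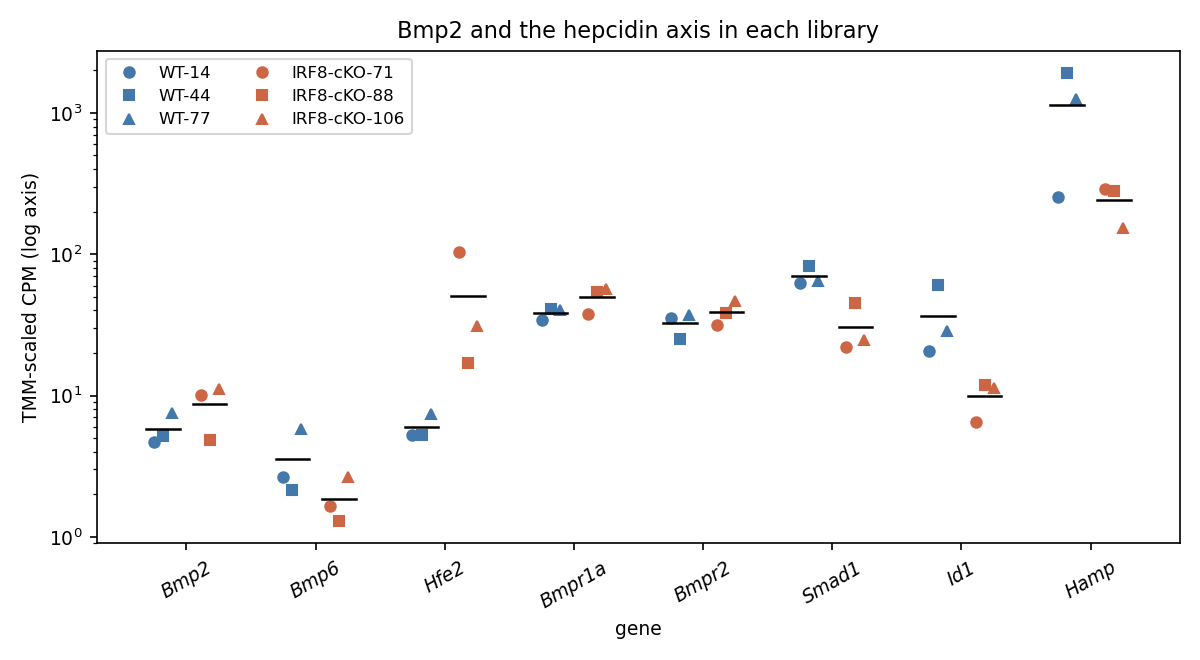
TMM-scaled CPM (log axis) of the ligands Bmp2 and Bmp6, the co-receptor gene Hfe2 (hemojuvelin), the receptors Bmpr1a and Bmpr2, the mediator Smad1 and the targets Id1 and Hamp, with 1 point per library and a bar at each group mean. Hfe2 lay higher and Smad1 and Id1 lower in all IRF8-cKO libraries (orange) than in WT (blue), and Hamp overlapped through WT-14.

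In the remaining families 0 genes passed in edgeR. An unadjusted p under 0.05 was reached by 3 of 10 Notch genes and 5 of 20 endocytosis genes. It was reached by 0 of 7 genes in the Fc gamma receptor list and 3 of 5 hyaluronan genes, beside 24.1% of all genes. Without IRF8-cKO-88, 2, 3, 0 and 2 genes of these families passed, beside 8.83% of all genes. Of 10 tested Notch genes, the pathway that Egfl7 modulates, 8 had negative log2 fold changes and the median was -0.19, or 0.069 with library totals. The ligand Dll1 had a log2 fold change of -1.53 (SE 0.45, edgeR adjusted p = 0.0912) and the target Hes1 one of -1.15 (SE 0.34, adjusted p = 0.0940). Of 20 endocytosis genes, which include Ehd3, the median was 0.04, with the clathrin adaptor Dab2 at -1.15 (SE 0.32, adjusted p = 0.0881) and the adaptor subunit Ap2a2 at 0.87 (SE 0.27, adjusted p = 0.105). The Ehd3 paralog Ehd4 ranged over 58.1 to 105 CPM for WT and 17.3 to 54.6 CPM for IRF8-cKO, without overlap (log2 fold change -0.996, adjusted p = 0.189), and was named after its values were seen. The 7 genes of the Fc gamma receptor list were Fcgr1, Fcgr2b, Fcgr3, Fcgr4, Fcgrt, Fcer1g and Inpp5d. All overlapped between groups (median -0.34). Fcgr4 had a log2 fold change of 1.05 (adjusted p = 0.223) and the shared chain Fcer1g one of -0.74 (adjusted p = 0.229). Of 9 hyaluronan genes 5 were tested (median -0.49). Log2 fold changes were -2.53 for the hyaluronan-binding Tnfaip6 (SE 0.70, adjusted p = 0.0878) and 0.96 for the hyaluronidase Hyal2 (SE 0.32, adjusted p = 0.119). Tnfaip6 ran from -3.60 without IRF8-cKO-106 to -2.04 without IRF8-cKO-71 and passed in no fit that left out a library. Without IRF8-cKO-88 Dll1 (adjusted p = 0.0406), Hes1 (0.0197), Dab2 (0.0273), Ap2a2 (0.0483) and Hyal2 (0.0421) passed. Has2 was at 0 reads in all libraries.

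Several members are also made by other cells, and markers of those cells differed between libraries. All 12 Kupffer cell markers had positive log2 fold changes (median 0.97, 0 passing), with Cd5l at 1.37 (edgeR adjusted p = 0.0784, or 0.0489 without IRF8-cKO-88) and Adgre1 at 1.76 (adjusted p = 0.0796). Their summed level was 136 to 164 CPM for WT and 447, 292 and 208 CPM for IRF8-cKO, with the defining markers Clec4f and Vsig4 present throughout. Lyve1, Stab1 and Fcgr2b are known from macrophages too, and the part of Kupffer cells in their values was not tested. Of 7 B cell markers 1, Ighm, was tested (log2 fold change -1.39, adjusted p = 0.1204), and the list summed to 6.78 to 17.2 CPM for WT and 3.27 to 6.91 CPM for IRF8-cKO. Lymphatic endothelium markers summed to 80.2 to 142 CPM for WT and 117 to 159.7 CPM for IRF8-cKO, most of it from Prox1, which hepatocytes also express, and from Reln, which stellate cells express. Log2 fold changes were 0.58 for Prox1 and -0.39 for Mmrn1, the latter at 0.0635 without WT-14. The lymphatic genes Pdpn and Ccl21a did not reach the filter, and Ccl21a was at or near 0 in every library.

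Stellate cell markers summed to 182 to 273 CPM for WT and 163 to 243 CPM for IRF8-cKO (8 tested, 0 passing, median 0.26). Among them Lrat, the retinol-storing enzyme, had a log2 fold change of 1.86 (edgeR adjusted p = 0.0951; 1.12 without IRF8-cKO-106, and a pass without IRF8-cKO-88 at adjusted p = 0.0159) and Ecm1 one of -0.52. Cholangiocyte markers summed to 456 to 937 CPM for WT and 129 to 250 CPM for IRF8-cKO. All 6 were lower without overlap, beside 14.5% of all genes, and 0 passed. Krt19 was at -3.47 (adjusted p = 0.0551; -2.21 without WT-77) and Epcam at -2.48 (adjusted p = 0.0602, or 0.0342 without IRF8-cKO-88) on the log2 scale. Neutrophil markers summed to 170.4 to 214 CPM for WT and 21.1 to 46.02 CPM for IRF8-cKO. Of 7 tested, 5 were called lower, beside 0.937% of all genes. These were S100a8 (-2.57), S100a9 (-2.37), Retnlg (-3.05), Ltf (-4.27) and Ngp (-4.41), given as log2 fold changes. Leaving out WT-44 or WT-77 left 0 of these calls, leaving out IRF8-cKO-106 left 1, and leaving out WT-14 left 4. Hepatocyte markers had a median of -0.42, with 0 of 8 passing, and Ttr was at -1.05 (adjusted p = 0.129) and Serpina1c at -1.14 (adjusted p = 0.133). These shifts in cell markers lie beside the values of the identity genes, and their part in them was not tested.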

How the data were processed

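Total RNA of the injured lobes was extracted with Trizol and made into bulk libraries with an NEBNext Ultra kit, per the labels' protocols. The authors deposited raw read counts per gene, with HISAT2 2.0.5, featureCounts 1.5.0-p3 and mm10 listed, per the submitters' processing notes. The sources used here do not give the strand setting, annotation release or treatment of multiply mapped reads, so reads of overlapping genes can be shared. The deposited gene_length column, another value in the table, served for levels per kilobase. All 10 members had the same start and end in GENCODE M21.

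Groups came from the titles. Genes were kept by filterByExpr (minimum count 10, minimum total 15), scaled by TMM and compared by a robust quasi-likelihood fit in edgeR 4.0.16 (R 4.3.3), two-sided, with Benjamini-Hochberg adjustment over 13134 genes with calls at adjusted p under 0.05. A positive log2 fold change is a higher level in IRF8-cKO. SE is the absolute log2 fold change over the square root of F, and 95% intervals use the test's total degrees of freedom. Values relative to endothelial genes used log2 CPM with a prior count of 2. The procedure was tested on simulated data. The fit was repeated with library totals, upper-quartile or median-of-ratios scaling, without a filter, with at least 1 CPM asked of 3 libraries, in DESeq2 1.42.0, in limma-voom (3.58.1) with and without library weights, with no robust shrinkage, without the 10 most read genes and without each library, and Pecam1 with Cdh5 served as another reference.

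The members and gene lists come from general knowledge and were chosen with earlier results of these data known. All members were named, and from each list the genes that passed or otherwise the 2 with the lowest p, plus ligands and receptors around Kdr, Tek and Bmp2. The rule for genes alike to the members applied only if their mean profile spanned more than 1 on the log2 scale, which it did not.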

Additional observations from a re-analysis of the deposited data

How the results depend on the processing

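No paired analysis was possible because the groups share no replicate number. The call of 0 of 10 members held with every scaling tried, with the 1 CPM filter, without robust shrinkage, without the 10 most read genes and in limma-voom. Without a low-count filter 4 members passed (7.15% of all genes called), with DESeq2 2 and with library weights 2. With 1 library left out, 0 to 3 members passed and their median ran from 0.04 to 0.41. Of the fits that left out a library, only the one without IRF8-cKO-88 called members. Stab2 turned to -0.065 with library weights and ran from -0.10 to 0.31 with 1 library left out. Fcgr2b turned to -0.073 in limma-voom and -0.28 with library weights. It ran from -0.41 to 0.30 with 1 library left out, and was negative without WT-44 (-0.079) and without IRF8-cKO-71 (-0.41). Members relative to general endothelial genes were 0.48 higher in IRF8-cKO on the log2 scale. With Pecam1 and Cdh5 as reference they were 0.82 higher, and the groups overlapped. Cdh5 itself had a log2 fold change of -1.21. All members kept their place in the order of levels under median-of-ratios scaling. The cause of these changes was not tested.

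Over all genes, 182 calls became 82 with library totals (39 higher and 43 lower, against 59 and 123), 1723 without a filter, 1423 with DESeq2, 111 in limma-voom, 665 with library weights and 0 to 1205 with 1 library left out. It was 0 without WT-77 (0.00% of genes), 1 without WT-44 and 20 without IRF8-cKO-106. Library totals moved the median of all genes from 0.03 to 0.25. With it the median of the members moved from 0.21 to 0.44 and that of other sinusoidal genes from 0.41 to 0.64. The medians of general endothelial genes moved to -0.12, the VEGF family to 0.23 and the angiopoietin axis to 0.56. Those of the BMP and hepcidin axis moved to 0.23 and of endocytosis genes to 0.25.

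Without a filter the lists gave 1 call among other sinusoidal genes, 7 among general endothelial genes, 2 in the VEGF family, 3 in the angiopoietin axis, 5 in the BMP axis, 3 in Notch, 2 in endocytosis and 3 in hyaluronan genes, whose median became 0.23. With DESeq2 the calls were 1, 7, 0, 2, 4, 3, 1 and 2 in the same order. With library weights they were 3 among general endothelial genes, 1 in the angiopoietin axis (median 0.18), 2 in the BMP axis and 1 among hyaluronan genes. The BMP axis also had 1 call with library totals and 1 without robust shrinkage, Hfe2 in both. With 1 library left out the calls ran from 0 to 1 among other sinusoidal genes, 0 to 6 among general endothelial genes, and 0 to 3 each in the VEGF family, angiopoietin axis, BMP axis and endocytosis genes. They ran from 0 to 2 in Notch and 0 to 2 in hyaluronan genes. All of these came without IRF8-cKO-88, apart from 1 BMP axis call each without WT-14 and without IRF8-cKO-71. Medians then ran from 0.11 to 0.59 in the angiopoietin axis and from -0.50 to -0.19 in Notch. Tek and Kdr rest on 25 to 40 and 41 to 84 reads in WT. In these lists Kdr counts in the VEGF family, Tek in the angiopoietin axis, Bmp2 in the BMP axis and Ehd3 in endocytosis.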
